A study of Homo sapiens with 6 samples.

Results

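The genes described here were 179 long intergenic noncoding RNAs (lincRNAs) detected in U87 cells, a line derived from a human glioblastoma. They were chosen by their symbol, LINC and a number, and selected on their raw read counts, which had to sum to at least 60 over the 6 libraries, and LINC00152, the gene targeted in the study, was left out. The tables listed 27192 gene symbols, of which 14023 reached the same sum. Of 918 LINC symbols beside LINC00152, 427 had no count in any library, 312 had 1 to 59 counts and 179 were included. Just inside the limit stood LINC00211 with 60 counts and LINC00618 and LINC01389 with 62 each, and just outside it LINC01135 with 57 and LINC00592 and LINC00668 with 55 each. The sum was taken over both groups, so a gene could enter through the group in which it was high. In 11 of the 179 genes 1 group held fewer than 30 counts, among them LINC01164 with 21 against 149 and LINC01619 with 17 against 58 (control against knockdown).

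LINC symbols are systematic names given to long RNAs that are transcribed between protein-coding genes and were annotated without a protein product. Such RNAs are spliced and polyadenylated like messenger RNAs but are usually present at lower levels and in fewer cell types. Some act on the chromatin or transcription of a gene next to them, some carry microRNAs or bind proteins in the nucleus or cytoplasm, some turned out to encode micropeptides, and for most no function is established. Many have since been given other names, and some of these are stated below.

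PolyA RNA was sequenced from U87 cells in 2 groups of 3 libraries, lettered A, B and C. Control cells received siGL2, a small interfering RNA (siRNA) directed at firefly luciferase, a gene that human cells lack, and knockdown cells received a mixture of 2 siRNAs against LINC00152. All cells were transfected in 2 rounds 24 hours apart and collected 24 hours after the last round. No other genotype, treatment or time was included. Since both siRNAs against LINC00152 were given together in 1 line, what follows from loss of LINC00152 and what follows from the siRNA sequences themselves cannot be told apart. Nothing in the labels says that the libraries came from separate cultures, so p-values measure the spread between these libraries, which may be technical.

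The targeted gene checked the labels. LINC00152 was counted at 650, 608 and 776 reads in siGL2 A, B and C and at 114, 112 and 109 in siLINC00152 A, B and C, a fall by 2.51 on the log2 scale (SE 0.09, adjusted p = 4.55e-15, edgeR quasi-likelihood test). A near-identical relative, MIR4435-2HG, with which LINC00152 may share reads, did not pass (log2 -0.05, adjusted p = 0.429). Total counts were 41963120 to 46234763 per library, and 3 counts, the most that a count of 0 allows, were 0.0649 to 0.0715 CPM (counts scaled to equal library totals). Replicates differed by more than sampling noise, with a chi-square per degree of freedom of 3.03 to 6.11 in 4 pairs and of 11.5 and 14.5 in the pairs that held siGL2 A. The cells are labelled as brain. Of 9 glial or glioma markers 3 reached 1 CPM (VIM, SLC1A3 and NES), AQP4 was at 0, and GFAP, S100B, ALDH1L1 and SOX2 had 2 to 34 counts in all libraries together. Of 6 mesenchymal markers 5 were well expressed. The summed glial list, made up mostly of VIM, was 8718 to 9252 CPM in siGL2 and 6811 to 7000 in siLINC00152 libraries, and the summed mesenchymal list was 10060 to 11120 and 11220 to 11590. In the neuronal list RBFOX3 and STMN2 had 1 and 4 counts while SNAP25, GAD1 and SYT1 were present, and its sum was 93.3 to 97.6 against 72.6 to 76.5. In the leukocyte list AIF1 was at 0 and PTPRC had 8 counts, and its sum, nearly all of it CSF1R, was 22.3 to 23.0 against 12.7 to 13.7. The endothelial sum was 1.92 to 2.6 against 1.79 to 1.83 and the epithelial sum 1.06 to 1.51 against 1.17 to 1.61. The part of these shifts in the results below was not tested. In RNA from a whole culture, fewer cells of a type and less RNA per cell cannot be told apart.

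The 179 lincRNAs were a small part of the transcriptome. They took 0.110% to 0.112% of all counts in siGL2 libraries and 0.1145% to 0.1146% in siLINC00152 libraries. In CPM scaled further by edgeR's trimmed mean of M values, the scale used for all levels here, their sum was 1079.5, 1073.2 and 1093.0 in siGL2 A, B and C, and 1171.3, 1172.2 and 1176.6 in siLINC00152 A, B and C. All 3 knockdown libraries lay above all 3 control libraries. Without the 10 lincRNAs with the most counts, which held 39.04% of the total, the ranges were 669.55 to 691.62 and 692.53 to 700.82 CPM and lay close together. The median lincRNA had 426 counts over the 6 libraries and a mean of 1.63 CPM, against 24.3 CPM for the median tested gene. Of the 179, 32 had a mean of 10 CPM or more and 73 were under 1 CPM.

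Most were annotated as noncoding, and some shared sequence with other genes. In GENCODE release 29 on GRCh38, 161 of the 179 were found, 146 under the symbol in the tables and 15 under another name. Of these, 113 were annotated as lincRNA, 15 as antisense, 12 as processed transcript and 10 as protein coding. They lay on all autosomes and on X, with 16 on chromosome 1, 13 on chromosome 2 and 12 on chromosome 13. The 18 not found included LINC00260, LINC00312, LINC00341, LINC00673, LINC00889, LINC00941, LINC01000, LINC01061 and LINC01590. Their overlap with other genes was not checked. Of these 18, 88.9% passed the test described below, against 52.2% of all tested members. Whether the counting used strand was not stated, so reads of overlapping genes may have been shared between them. In 40 of the 161, at least 10% of the exonic bases or of the 75-base stretches were also held by other genes. Those whose values are described below are given with that share. A share counts all other genes together, and a gene named with it had the most matches. Of the exonic bases of LINC00618, named above, 27.1% overlap other genes of the same strand, with the most in VRK1.

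Among the 12 members with the highest mean CPM, 8 rose, 2 fell and 2 did not pass the test. Of all 14078 tested genes, 64.3% passed, 32.2% higher and 32.2% lower, and of the 10679 with 1000 or more counts, 71.4% passed, 36.2% higher and 35.3% lower. LINC01000, which had the highest CPM of all, was at 62.4, 54.7 and 51.3 CPM in siGL2 A, B and C, and at 82.3, 73.1 and 76.1 CPM in siLINC00152 A, B and C. All knockdown values lay above all control values, and the log2 fold change was 0.46 (SE 0.06, adjusted p = 4.08e-06, edgeR quasi-likelihood test, as for every adjusted p below unless another tool is named). No annotation was matched to LINC01000, so its overlap with other genes was not checked. LINC00294 showed the steepest rise of these 12, from 32.3 ± 0.980 to 54.7 ± 0.760 CPM (mean ± SD, n = 3 libraries each, as throughout), a log2 fold change of 0.76 (SE 0.05). It lies inside the gene body of TCP11L1, and 17.4% of its exonic bases overlap the pseudogene PIGCP1 on the other strand. LINC00346, now named PRECSIT for its regulation by p53, had 37.5, 35.6 and 31.8 CPM in the controls and 52.7, 55.4 and 52.6 CPM in the knockdown libraries, again without overlap, and rose by 0.62 (SE 0.06). LINC01128 rose by 0.55 and LINC00674 by 0.48, from 37.1 ± 2.03 to 54.3 ± 1.15 and from 35.9 ± 1.64 to 50.2 ± 1.54 CPM. Smaller rises were measured in LINC00094, the antisense neighbour of BRD3 now called BRD3OS (log2 0.29), LINC01004 (0.29) and LINC00667 (0.26). Of the exonic bases of LINC00094, 21.4% overlap BRD3, and of those of LINC00667, 25.4% overlap other genes on the other strand.

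The falling members of the top 12 were LINC01444 and LINC00998. LINC01444, a short noncoding gene on chromosome 18 (14969001 to 14970468, minus strand, GRCh38), had 37.9, 38.4 and 40.4 CPM in siGL2 and 21.7, 20.3 and 20.4 CPM in siLINC00152 libraries. All knockdown values lay far below all control values, with a log2 fold change of -0.90 (SE 0.06, adjusted p = 1.44e-11). LINC00998 fell by 0.24 on the log2 scale (SE 0.06, adjusted p = 0.00203). LINC01116 and LINC00641 did not pass, with log2 fold changes of 0.04 (95% interval -0.08 to 0.16) and -0.02 (-0.16 to 0.11), and their groups overlapped. Of the 75-base stretches of LINC01116, 17% are shared with other genes, most often DNAJC21, and 12.4% of its exonic bases overlap LINC01117. Levels of different genes can be compared only per length of exonic sequence. On the scale of CPM per kilobase LINC00674 was highest at 58.6, followed by LINC00998 at 33.4, LINC01004 at 23.3, LINC01444 at 22.4 and LINC01116 at 18.0, and the median of the 161 members with a length was 0.540.

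**Figure D1:**
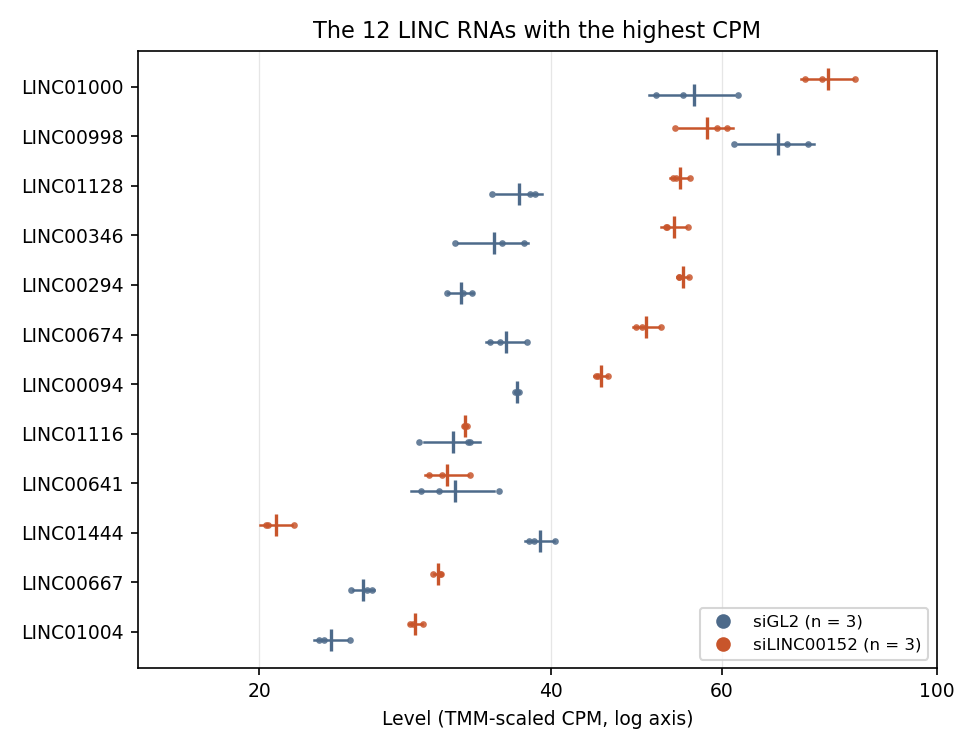
TMM-scaled CPM (log axis) of the 12 LINC RNAs with the highest mean CPM in the 3 siGL2 (blue) and 3 siLINC00152 (orange) libraries; points are libraries, the upright mark is the mean and the line 1 SD. In 10 of the 12 rows the colours do not overlap, and in LINC00998 and LINC01444 the control lies to the right.

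Fewer members than genes in general passed the test. Of 178 tested members (LINC00211 was too low), 53 were higher, 40 lower and 85 did not pass an adjusted p of 0.05. This was 52.2% of the members, against 64.3% of all 14078 tested genes. Higher members were 29.8% against 32.2% of all genes, and lower members 22.5% against 32.2%. Among members free of shared sequence and exonic overlap, falls outnumbered rises, as given below. The median log2 fold change was 0.09 among members and -0.00 among all tested genes, and the median size without regard to sign was 0.41 against 0.28. With a fold change of at least 2, 8 members were higher and 9 lower, against 3.08% and 3.53% of all genes (6.61% in both directions together). In 98 members the CPM ranges of the groups did not overlap, against 67.7% of all tested genes.

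The lower share of calls went with lower counts. With 60 to fewer than 300 counts in all, 32.4% of members passed against 33.4% of all tested genes. With 300 to fewer than 1000 counts the shares were 58.3% and 53.7%, and with 1000 or more they were 73.2% and 71.4%. Antisense RNAs with symbols ending in AS and a number, another class of noncoding RNA in the same counts, passed in 47.5% of 354 tested genes, and in 33.8%, 51.3% and 63.4% at these depths. So at a given depth the shares called in either direction stood within 5 percentage points of each other in members and all genes. By direction they stood farther apart. With 300 to fewer than 1000 counts, 37.5% of members were higher and 20.8% lower, against 25.9% and 27.8% of all genes. With 1000 or more, these were 42.9% and 30.4% against 36.2% and 35.3%. There the median size of the log2 fold change was 0.40 against 0.25. With 60 to fewer than 300 counts, they were 14.9% and 17.6% against 15.2% and 18.2%. No class was tested against another. Among called members 40 of 93 differed by less than 1.5-fold. Among the 85 that did not pass, 25 had a 95% interval that stayed within 0.5 of 0 on the log2 scale, while 18 had one that reached beyond 1, so for those a change of 2-fold was not excluded.

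**Figure D2:**
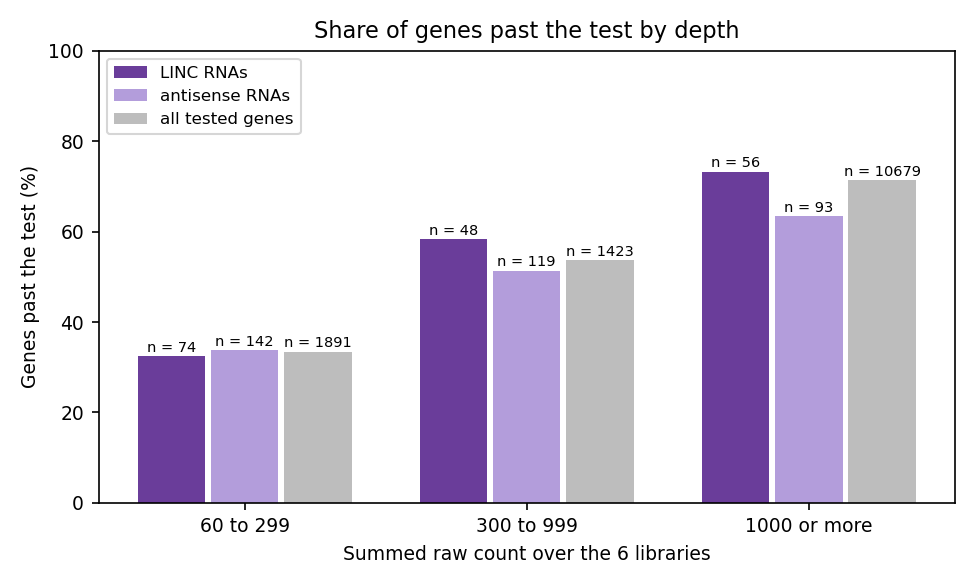
Share of genes (%) past an adjusted p of 0.05 by summed raw count over the 6 libraries, for LINC RNAs, antisense RNAs and all tested genes; n above each bar is the number of genes. All 3 classes rise with depth, from 32.4% to 73.2% in LINC RNAs and from 33.4% to 71.4% in all tested genes.

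**Figure D3:**
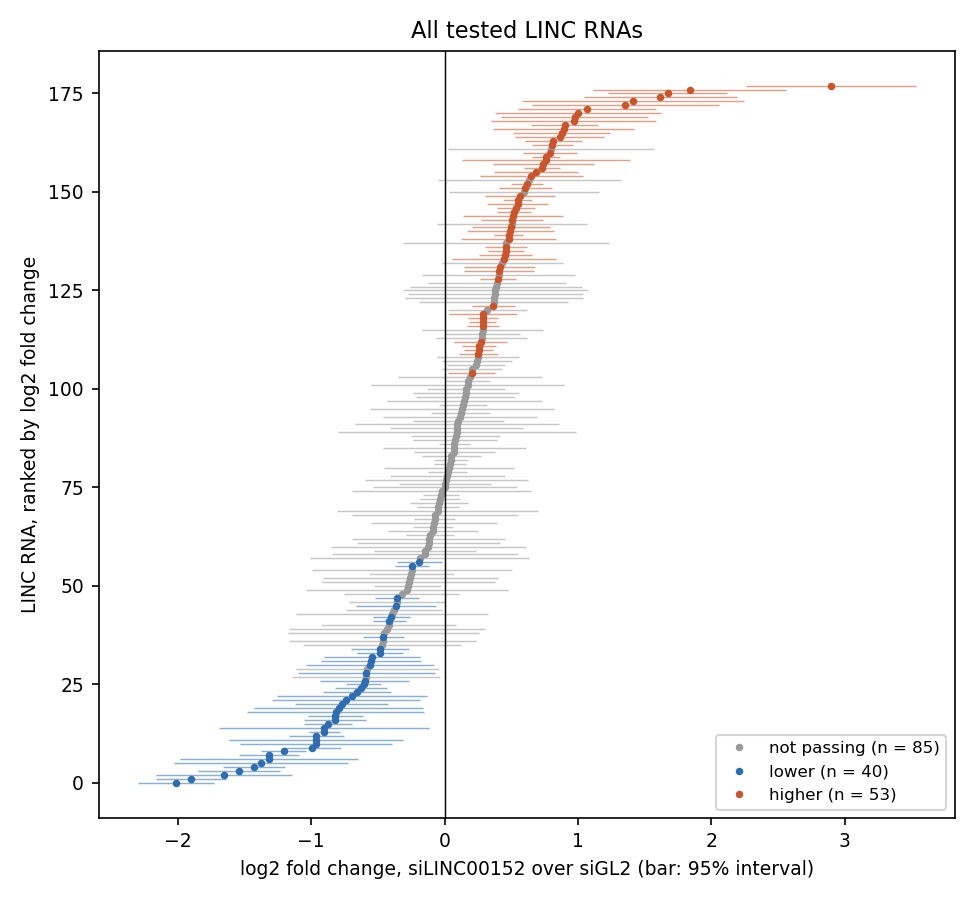
Log2 fold change (siLINC00152 over siGL2) of the 178 tested LINC RNAs, ranked, with 95% intervals; orange are the 53 higher, blue the 40 lower and grey the 85 not passing. The ends of the ranking run from -2.01 in LINC01551 to 2.90 in LINC01164, and the widest intervals belong to members with few counts.

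The largest rise was that of LINC01164, on chromosome 10 (131772398 to 131790199, minus strand). It had 6, 8 and 7 counts in siGL2 A, B and C, and 63, 49 and 37 counts in siLINC00152 A, B and C. In CPM these were 0.138, 0.185 and 0.148 against 1.53, 1.17 and 0.869, and no value of one group came near the other. The log2 fold change was 2.90 (SE 0.30, adjusted p = 5.19e-08), a 7.45-fold difference. Its nearest tested coding gene, PPP2R2D, a regulatory subunit of protein phosphatase 2A 110445 bases away, was at 27.0 ± 0.957 and 28.2 ± 1.5 CPM and did not pass (adjusted p = 0.338). LINC01164 entered the set mainly through its knockdown counts.

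LINC01583 and LINC00312 followed. LINC01583, on chromosome 15 (82088594 to 82097694, plus strand), had 0.392, 0.741 and 0.613 CPM in the controls and 2.22, 1.57 and 1.81 CPM after the knockdown, a 3.19-fold difference (log2 1.67, SE 0.21, adjusted p = 8.77e-07). Every knockdown library was above every control library. EFL1, the nearest tested coding gene and a factor of ribosome maturation, was at 43.8 ± 1.06 and 43.6 ± 0.858 CPM and did not pass. LINC00312, first described in nasopharyngeal carcinoma, had 0.184, 0.347 and 0.338 against 0.852, 1.09 and 0.751 CPM (log2 1.62, SE 0.27). No annotation was matched to it.

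The other rises were under 2.2-fold. LINC01465 rose by 1.07 on the log2 scale and LINC01560 by 0.90, and both lie close to a coding gene described below. LINC00630 had 3.46, 2.11 and 2.01 against 4.31, 4.21 and 5.33 CPM, so siGL2 A stood apart from the other controls, and the log2 fold change was 0.88 (SE 0.17). LINC00702 (0.86), LINC00260 (0.82), LINC01003 (0.79) and LINC01176 (0.90) also rose without overlap of the groups. LINC01001 rose by 0.97, but 80.8% of its 75-base stretches are shared with other genes, most often LINC01002, so its counts are uncertain. Of the exonic bases of LINC01176, 12.5% lie in another gene of the same strand. LINC01619, LINC01590 and LINC01068 had log2 fold changes of 1.84, 1.41 and 1.36 at under 0.5 CPM and were kept out of the 12 largest rises by that low level.

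LINC01551 fell the most. It lies on chromosome 14 (28772704 to 28813453, plus strand). The siGL2 libraries had 4.38, 3.94 and 4.88 CPM and the siLINC00152 libraries 1.02, 1.17 and 1.08 CPM, and the groups lay far apart. The log2 fold change was -2.01 (SE 0.14, adjusted p = 7.97e-11), a 4.03-fold difference.

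LINC01050 was next, on chromosome 13 (42810366 to 42812562, minus strand), with 4.84, 4.40 and 4.61 CPM in the controls against 1.19, 1.29 and 1.22 CPM (log2 -1.90, SE 0.12, adjusted p = 4.05e-11). The values within each group stood close together. Its nearest tested coding gene, EPSTI1, was 73826 bases away and near the limit of detection (0.251 ± 0.128 and 0.206 ± 0.115 CPM). LINC00959, annotated as the protein-coding gene C10orf143, fell by 1.66, LINC00922 by 1.54, LINC01204 by 1.43, LINC01085 by 1.32 and LINC00341 by 1.21 on the log2 scale. LINC00922 had 2.77, 3.19 and 2.88 against 1.02, 1.07 and 0.939 CPM, and LINC00341, the most abundant of these, 11.5, 11.7 and 10.6 against 4.99, 4.83 and 4.84 CPM. In none of these members did the groups overlap. Their coding neighbours did not all move with them: KDM6A, an H3K27 demethylase 392786 bases from LINC01204 on the X chromosome, was higher (log2 0.58, SE 0.05), and BOD1L1, 484245 bases from LINC01085, was higher too (0.30, SE 0.05). LINC00565 (-0.996), LINC00889 (-0.96), LINC01444 and LINC01119 (-0.87) completed the list with LINC01296 (-0.96), annotated as the pseudogene DUXAP9. Of the 75-base stretches of LINC01296, 79.4% are shared with other genes, most often the pseudogene DUXAP10.

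**Figure D4:**
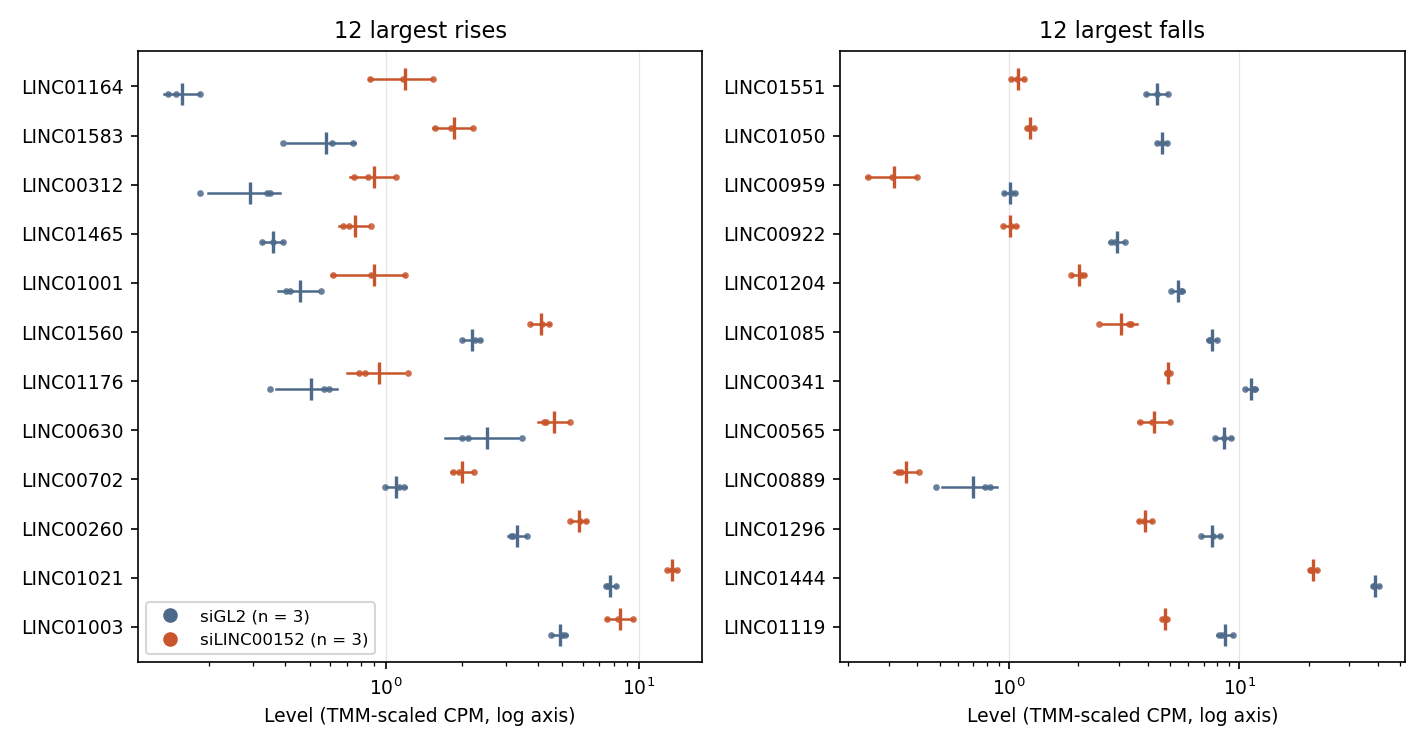
TMM-scaled CPM (log axis) in the 3 siGL2 (blue) and 3 siLINC00152 (orange) libraries for the 12 largest rises (left) and 12 largest falls (right) among members past an adjusted p of 0.05 whose mean reached 0.5 CPM and whose groups did not overlap; points are libraries, the upright mark is the mean and the line 1 SD. No row overlaps, which the choice of rows fixed, and the falls include more members above 2 CPM in controls than the rises.

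Of 7 LINC RNAs known to encode micropeptides, 5 were members, of which 4 were lower and 1 did not pass, where 35.3% of all tested genes with 1000 or more counts were lower. LINC00961 had 40 counts, and LINC00948 was not listed under this symbol. LINC00998, which encodes the small membrane protein SMIM30, had 61.7, 70.1 and 73.7 CPM in siGL2 and 53.7, 59.3 and 60.8 CPM in siLINC00152 libraries, with the lowest control just above the highest knockdown value. LINC01420, the source of NBDY, a peptide that binds the messenger RNA decapping complex, fell from 17.0 ± 1.22 to 12.4 ± 0.976 CPM (log2 -0.46, SE 0.07, adjusted p = 1.55e-05). LINC00116, the source of the mitochondrial inner membrane peptide mitoregulin (MTLN), had 12.7, 13.8 and 15.8 against 11.6, 10.7 and 10.8 CPM and fell by 0.36 (SE 0.08). LINC00467, from which a mitochondrial peptide has been described, fell by 0.48 (SE 0.10). LINC00493, the source of SMIM26, was at 16.4 ± 1.21 and 15.6 ± 1.39 CPM, overlapped and did not pass (log2 -0.07, 95% interval -0.23 to 0.08), and 13.1% of its exonic bases lie in another gene of the same strand. The median of the 5 was -0.36. Of the 10 members annotated as protein coding, 5 were lower, 2 higher and 3 did not pass, so 70% passed, against 67% of all 12435 tested protein-coding genes, of which 33.6% were lower and 33.4% higher.

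Of 5 hosts of small or circular RNAs, 2 were members, and both had lower values, of which 1 passed. LINC00599 had 2 counts, and LINC00478 and LINC00338 were not listed under these symbols, so their levels were not examined. LINC00461, a brain-enriched RNA whose gene contains the microRNA gene MIR9-2, had 19.9, 19.1 and 22.3 CPM in siGL2 and 15.2, 16.1 and 15.3 CPM in siLINC00152 libraries (log2 -0.40, SE 0.07, adjusted p = 2.77e-05). The groups did not overlap. The microRNA itself was not measured, since polyA RNA libraries do not hold mature microRNAs. It is shown because its hairpin lies inside the gene body of LINC00461, on the same strand (GRCh38.p14, chr5:88666902-88666924, minus strand), with the seed, bases 2 to 8, in capitals (RefSeq):
miR-9-5p: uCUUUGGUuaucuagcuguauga
LINC00632, the precursor of the circular RNA CDR1-AS, was at 3.34 ± 0.137 and 2.76 ± 0.368 CPM and did not pass (log2 -0.28, 95% interval -0.53 to -0.02, adjusted p = 0.0521). Without siLINC00152 C it passed (log2 -0.38, adjusted p = 0.0216).

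Of 7 LINC RNAs with an established regulatory role, 3 were members, and all 3 were higher, as were 32.2% of all tested genes. LINC00473 had 11 counts and LINC01158 had 0. LINC00657 and LINC00340 were not listed under these symbols, so their levels were not examined. LINC01021, known as PURPL, a p53-induced RNA that restrains p53, had 8.16, 7.45 and 7.55 CPM in the controls and 14.1, 13.5 and 12.9 CPM after the knockdown, and the groups lay well apart (log2 0.81, SE 0.07, adjusted p = 5.56e-09). LINC01578, known as CHASERR, restrains its neighbour CHD2, a chromatin remodeller whose gene begins next to it. It had 20.9, 22.6 and 22.3 against 26.2, 27.9 and 26.1 CPM (log2 0.29, SE 0.06, adjusted p = 0.000199). CHD2 was higher too, at 95.7 ± 2.78 and 132 ± 0.846 CPM (log2 0.46, SE 0.04, adjusted p = 1.41e-08), so both members of this pair rose. LINC00936, now ATP2B1-AS1, is transcribed from the start of the calcium pump gene ATP2B1 in the opposite direction. It had 1.71, 2.45 and 2.09 against 3.02, 2.33 and 3.45 CPM, and the groups overlapped (log2 0.49, SE 0.16, adjusted p = 0.00892). ATP2B1 fell from 181 ± 4.72 to 102 ± 4.15 CPM (log2 -0.83, SE 0.05, adjusted p = 2.99e-12). Without siLINC00152 C the change of LINC00936 no longer passed (log2 0.36, adjusted p = 0.0749).

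Of 12 LINC RNAs that have been described in glioma or other tumours, 10 were members, and 3 were higher, 3 lower and 4 not passing, so that 60% passed against 64.3% of all tested genes. LINC00673 rose the most, with 15.6, 15 and 17 CPM in the controls and 27.9, 26.6 and 24.7 CPM after the knockdown, without overlap (log2 0.73, SE 0.06, adjusted p = 4.05e-09). LINC00963 rose from 11 ± 0.426 to 14.5 ± 0.203 CPM (0.40, SE 0.07) and LINC00460 from 23.1 ± 1.87 to 27.6 ± 0.492 CPM (0.26, SE 0.06). LINC00941 fell from 25.6 ± 1.14 to 19.2 ± 0.810 CPM (-0.41, SE 0.06), and LINC00461 and LINC00467 fell as stated above. LINC01116, LINC00665, LINC00511 and LINC00662 did not pass. For LINC00511, with 91 counts in all, the 95% interval ran from -0.91 to 0.40, so changes of these sizes were not excluded. LINC00662 (log2 0.24, adjusted p = 0.0541) passed without siGL2 A (0.31, adjusted p = 0.0144) and without siGL2 C (0.28, adjusted p = 0.0372).

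Better known long noncoding RNAs with other symbols also moved in both directions. Of 38 looked for, 35 were tested, and 9 were higher (25.7%, against 32.2% of all tested genes), 16 lower (45.7% against 32.2%) and 10 not passing, with a median log2 fold change of -0.11 against -0.00 for all tested genes. NEAT1, the scaffold of paraspeckles, was higher by 1.57 (SE 0.06) and KCNQ1OT1, an imprinted RNA, by 1.47 (SE 0.06). OIP5-AS1 was higher by 0.61 (SE 0.05). The snoRNA hosts SNHG8 and SNHG3 were lower by 0.80 (SE 0.07) and 0.78 (SE 0.05), and DANCR by 0.76 (SE 0.05). Of the other RNAs named SNHG, SNHG1, SNHG5, SNHG6, SNHG7, SNHG12 and SNHG17 were lower, SNHG15 and SNHG16 did not pass and none was higher. GAS5 and ZFAS1, also snoRNA hosts, were lower too. The share of falls in this list therefore depends on how many such hosts it holds.

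Each member was compared with the coding gene nearest to it. The nearest tested protein-coding gene was found for the 161 annotated members. It overlapped the member's gene body in 23 cases, lay 1 to 10000 bases away in 38 and farther in 100. This division was chosen in the course of the analysis. Among the 38 close pairs, both genes passed in 13, with both higher in 6 and both lower in 7, and no pair went in opposite directions. For comparison, among 1283 pairs of tested coding genes 1 to 10000 bases apart in which both passed, 717, or 55.9%, went the same way. In overlapping pairs 5 of 8 went the same way, and in pairs over 10000 bases apart 12 of 31. The 5 include LINC00894 and LINC01089, whose shared sequence is given below. The small number of close pairs limits this count, and the difference from other pairs was not tested.

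The close pairs that rose together joined members to genes of several kinds. LINC01465 lies 1272 bases from MON2, a regulator of Golgi traffic, and had 0.392, 0.324 and 0.359 against 0.877, 0.714 and 0.681 CPM (log2 1.07, SE 0.25, adjusted p = 0.000793), while MON2 went from 72.4 ± 7.01 to 114 ± 1.2 CPM (0.66, SE 0.06). LINC01560 lies 625 bases from the zinc finger gene ZNF41 and had 2.35, 2.25 and 2.01 against 4.14, 3.74 and 4.44 CPM (0.90, SE 0.12, adjusted p = 1.35e-06), and ZNF41 rose by 0.19 (SE 0.06). In both members the knockdown libraries were all above the controls. LINC01004 lies 1135 bases from KMT2E, a chromatin regulator, which rose by 0.42 (SE 0.05). LINC01137, 141 bases from ZC3H12A, an RNase that degrades inflammatory messenger RNAs, rose by 0.27 (SE 0.09, adjusted p = 0.0167), and ZC3H12A by 0.89 (SE 0.07, adjusted p = 9.28e-10), from 9.79 ± 0.781 to 18.1 ± 0.826 CPM. LINC00672 rose by 0.51 (SE 0.18, adjusted p = 0.0176) 3398 bases from LASP1, an actin-binding protein gene, which rose by 0.43 (SE 0.04). LINC01578 and CHD2 complete the 6.

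Of the close pairs that fell together, 5 are given here. LINC01184 lies 594 bases from SLC12A2, the sodium, potassium and chloride cotransporter gene, and had 20.7, 19.4 and 20.8 against 13.1, 13.0 and 13.8 CPM (-0.61, SE 0.06, adjusted p = 3.53e-08), and SLC12A2 fell by 0.33 (SE 0.05). All knockdown libraries of LINC01184 lay below all controls. LINC00601 fell by 0.82 (SE 0.10) with C10orf90 (-0.49, SE 0.05), LINC00467 with TRAF5, an adaptor of tumour necrosis factor receptors (-0.54, SE 0.10), LINC01547 by 0.96 (SE 0.31, adjusted p = 0.0108) with FAM207A (-0.53, SE 0.08), and LINC01521 by 0.37 (SE 0.14, adjusted p = 0.0316) with the zinc finger gene PATZ1 (-0.42, SE 0.09).

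Some of these calls rested on single libraries. LINC00672 did not pass without siGL2 A, siGL2 B or siLINC00152 B (adjusted p = 0.0862, 0.0528 and 0.0665). LINC01137 did not pass without siGL2 B or siLINC00152 C (0.0656 and 0.0684). LINC01521 did not pass without siGL2 B, siGL2 C, siLINC00152 B or siLINC00152 C (0.136, 0.0579, 0.0831 and 0.0677), and LINC01547 without siGL2 A or siLINC00152 A (0.0595 and 0.0704). In each of these the direction held. One close pair stood just outside the count and went the other way: LINC01426, 2915 bases from RUNX1, a transcription factor, had a log2 fold change of -0.59 (adjusted p = 0.0578) and RUNX1 one of 0.57 (SE 0.05, adjusted p = 2.98e-09). LINC01426 passed without siGL2 A (-0.82, adjusted p = 0.00616) and without siLINC00152 B (-0.82, adjusted p = 0.0305), so in these cases 1 close pair was opposite.

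**Figure D5:**
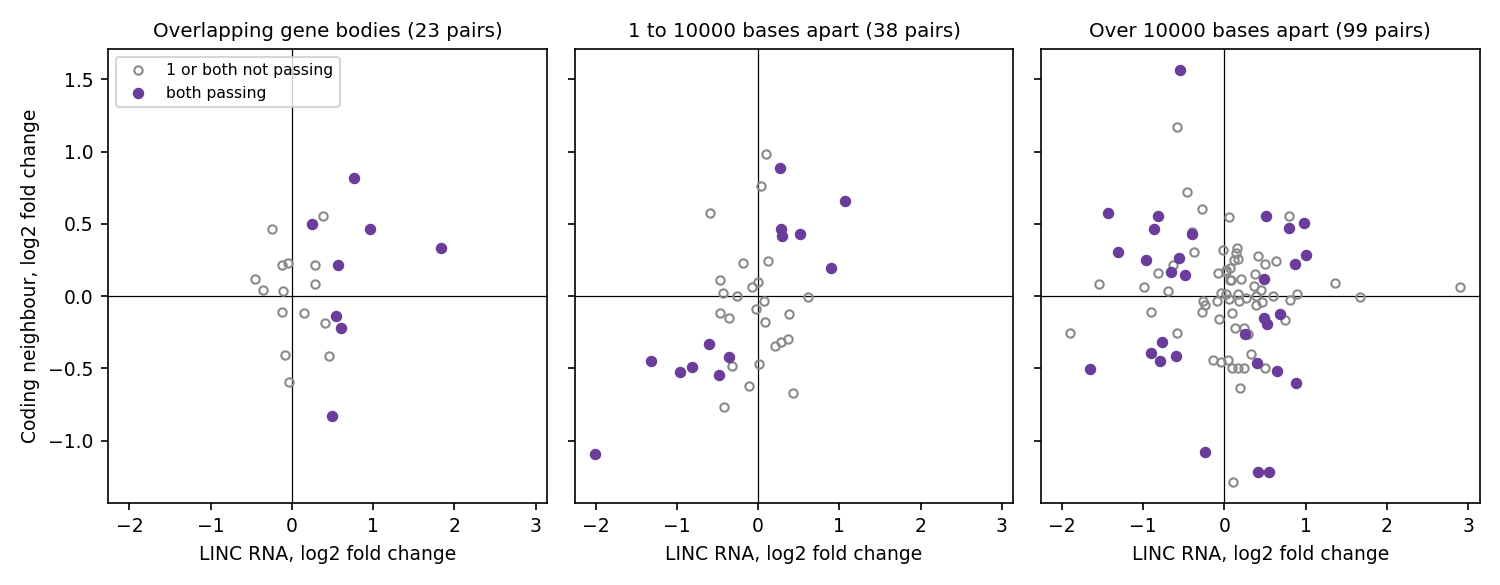
Log2 fold change of each LINC RNA (x axis) and of its nearest tested coding gene (y axis), siLINC00152 over siGL2, in overlapping pairs (left), pairs 1 to 10000 bases apart (middle) and pairs farther apart (right, without the untested LINC00211); filled points are pairs in which both passed. In the middle panel the 13 filled points lie at the upper right or lower left, in the left panel to the right of 0 both above and below it, and in the right panel on all sides.

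Divergent pairs, with starts on opposite strands at most 1000 bases apart, numbered 16. In 9 of them the member passed, and its coding partner passed in the same direction in 7 and in the opposite direction in 2. The pairs of LINC01137, LINC01560, LINC01184, LINC01521 and LINC01547 are among these 7. They were already counted as close pairs that moved together, so the 2 counts are not separate results. Also among the 7 are LINC00894 with CXorf40B (log2 0.57 and 0.22) and LINC01089 with SETD1B (0.25 and 0.38). Of the 75-base stretches of LINC00894, 18.9% are shared with other genes. Of the exonic bases of LINC01089, 41.7% lie in other genes of the same strand. The counts of both lincRNAs are therefore uncertain. The 55.9% given above for pairs of coding genes is the nearest background, and the difference was not tested. The exceptions were LINC00936 with ATP2B1, given above, and LINC00476, which rose by 0.60 (SE 0.09, adjusted p = 1.19e-05) while ERCC6L2, a DNA repair helicase, fell by 0.22 (SE 0.05). Of the 7 partners of members that did not pass, 1 was higher, 3 lower and 3 not passing. Among overlapping pairs, LINC01619 lies over BTG1, an antiproliferative gene, on the same strand, and 13.8% of its exonic bases are those of BTG1, so its counts are uncertain. It had 0.115, 0.139 and 0.127 against 0.487, 0.381 and 0.517 CPM (log2 1.84, SE 0.35), and BTG1 rose by 0.33 (SE 0.05). LINC00294 and TCP11L1 rose by like amounts, 0.76 and 0.82.

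Promoter sequences were at hand in RefSeq (GRCh38.p14) for 143 of the 179 members, each from 250 bases before to 50 bases after the annotated start. Among the 12 largest rises and 12 largest falls given above, those of the 2 largest rises and 2 largest falls with an entry are shown. They were taken for the size of their change. That of LINC01560 is shown because by RefSeq it also holds the start of a coding gene, ZNF41. Each runs 5′ to 3′ on the strand of the gene. Capitals mark matches, on either strand, to 6 motifs: the TATA box, written TATAAA, the box named CCAAT after its letters, the GC box, GGGCGG, the E-box, CACGTG, the element bound by AP-1, the FOS and JUN factors, TGAGTCA, and the cyclic AMP response element, TGACGTCA. None of these motifs contains another. The windows are chr15:82088344-82088643 (plus strand) for LINC01583, chr3:8571532-8571831 (plus) for LINC00312, chr14:28772454-28772753 (plus) for LINC01551, chr13:42812513-42812812 (minus) for LINC01050 and chrX:47482466-47482765 (plus) for LINC01560.
LINC01583: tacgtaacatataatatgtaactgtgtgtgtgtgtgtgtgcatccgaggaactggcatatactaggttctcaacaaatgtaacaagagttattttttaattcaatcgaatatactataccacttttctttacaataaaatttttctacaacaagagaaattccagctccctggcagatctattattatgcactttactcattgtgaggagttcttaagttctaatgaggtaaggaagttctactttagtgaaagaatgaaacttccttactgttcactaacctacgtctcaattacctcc
LINC00312: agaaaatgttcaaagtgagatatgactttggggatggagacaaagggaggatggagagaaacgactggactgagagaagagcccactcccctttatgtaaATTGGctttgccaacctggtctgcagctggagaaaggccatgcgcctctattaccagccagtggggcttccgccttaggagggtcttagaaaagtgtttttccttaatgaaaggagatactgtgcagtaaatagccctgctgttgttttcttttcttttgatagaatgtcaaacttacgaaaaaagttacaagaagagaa
LINC01551: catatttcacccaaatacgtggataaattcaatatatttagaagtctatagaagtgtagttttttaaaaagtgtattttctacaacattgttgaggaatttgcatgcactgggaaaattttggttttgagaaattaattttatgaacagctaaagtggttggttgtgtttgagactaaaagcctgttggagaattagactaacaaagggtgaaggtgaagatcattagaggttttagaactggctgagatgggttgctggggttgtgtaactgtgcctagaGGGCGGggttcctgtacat
LINC01050: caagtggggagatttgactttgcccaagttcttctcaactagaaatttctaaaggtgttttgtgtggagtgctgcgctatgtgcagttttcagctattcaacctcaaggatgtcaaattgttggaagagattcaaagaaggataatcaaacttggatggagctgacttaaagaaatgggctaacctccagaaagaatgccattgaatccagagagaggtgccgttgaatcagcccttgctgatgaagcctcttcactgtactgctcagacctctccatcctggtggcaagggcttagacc
LINC01560: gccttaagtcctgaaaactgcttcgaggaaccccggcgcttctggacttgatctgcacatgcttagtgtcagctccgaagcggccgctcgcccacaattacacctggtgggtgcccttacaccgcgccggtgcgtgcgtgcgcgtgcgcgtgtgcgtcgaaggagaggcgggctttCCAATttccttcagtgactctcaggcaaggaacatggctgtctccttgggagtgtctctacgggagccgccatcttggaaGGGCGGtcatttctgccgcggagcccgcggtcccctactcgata

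The first 4 windows were poor in CG, and the last was rich in it. LINC01583, LINC00312, LINC01551 and LINC01050 had a G and C content of 34%, 43.7%, 36.7% and 45% and 4, 4, 2 and 2 CG dinucleotides. The window of LINC01560 had 61% and 27. It contains the RefSeq start of ZNF41, 112 bases from that of LINC01560, so by RefSeq both genes begin in this stretch. In GENCODE, LINC01560 begins at 47483571, beyond this window, and the starts of the 2 genes lie 625 bases apart. The median member promoter had 54.7% and 8 CG dinucleotides, against 58.7% and 14 over 35116 promoters. Members that rose had a median of 10 CG dinucleotides, members that fell 6 and members that did not pass 8.5, and this order was not tested.

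The 6 motifs were chosen in the course of the analysis, and no share was tested. The AP-1 element was found in 21 of the 143 member promoters, or 14.7%, against 4.95% of all 35116 promoters, 3.28% of those of 10712 other tested genes and 3.58% of those of 279 antisense RNAs. The other motifs ranged from a lower share in members, as for the GC box (38.5% against 45% of all promoters and 69% of those of other tested genes), to a higher one, as for the TATA box (12.6% against 11.5% and 5.77%) and CCAAT (45.5% against 34.6% and 36.8%). The E-box was found in 4.9% against 7.26% of all promoters, and the cyclic AMP response element in 1.4% against 1.85%. Member promoters are poorer in G and C than others, and the part of base composition in these shares was not tested. Of the 21 members with the AP-1 element 8 were higher, 2 lower and 11 not passing, and of all 143 with an entry 40 were higher, 30 lower, 72 not passing and 1 untested. LINC01061 and LINC01001, both among the 8, have nearly the same bases around the element, so they may not be separate cases. A match is a run of letters and says nothing of binding. The 5 of the 21 with the highest CPM are shown with 12 bases on each side, on the strand of the gene, the element or its reverse complement in capitals:
LINC00346: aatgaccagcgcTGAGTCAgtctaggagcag
LINC00460: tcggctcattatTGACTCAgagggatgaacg
LINC00963: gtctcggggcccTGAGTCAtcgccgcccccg
LINC00339: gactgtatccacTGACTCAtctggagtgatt
LINC01411: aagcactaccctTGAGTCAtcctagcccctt
These windows lie at chr13:110870388-110870418 (minus strand), chr13:106376508-106376538 (plus), chr9:129488667-129488697 (plus), chr1:22025078-22025108 (plus) and chr5:174336168-174336198 (plus), in the order shown. The element lies after the RefSeq start in LINC00963 and before it in the others. In GENCODE, LINC00460 begins at 106374477, LINC00963 at 129483451 and LINC00339 at 22024558. By that annotation their windows lie inside the gene. LINC00346, LINC00460, LINC00963 and LINC01411 rose, the last from 8.36 ± 0.465 to 10.8 ± 0.688 CPM (log2 0.36, SE 0.08, adjusted p = 0.000326). LINC00339 was at 11.5 ± 0.309 and 11.7 ± 0.653 CPM and did not pass (log2 0.02, 95% interval -0.12 to 0.17). Its counts are uncertain, since 40.9% of its exonic bases overlap another gene on the other strand, 18% overlap one on the same strand and 27.5% of its 75-base stretches are shared. The members that fell with the element were LINC00601 (-0.82, SE 0.10) and LINC01358 (-0.77, SE 0.17).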

How the data were processed

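Per the labels' protocols, directional libraries of U87 polyA RNA were read from both ends over 75 bases. The deposited values are raw whole-number counts per gene symbol, 1 table per library, and the submitters' processing notes name bcl2fastq, HISAT, HTSeq, DESeq and the build hg38. Tool versions, annotation and strand setting were not given in the sources used here. Groups and letters were taken from the titles.

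All further values were computed with edgeR 4.0.16, DESeq2 1.42.0 and limma 3.58.1 under R 4.3.3, and with Python 3.11.15, numpy 2.4.6, pandas 2.3.3 and matplotlib 3.10.9. Genes were filtered with filterByExpr (minimum count 10, minimum total count 15), libraries were scaled by TMM (factors 0.975 to 1.03), and all 6 were fitted with edgeR's robust quasi-likelihood test (two-sided, no covariate), with Benjamini-Hochberg adjustment over 14078 genes. Standard errors were taken as the log2 fold change over the square root of F. The fit was tested on simulated data. The members, the lists and the motifs were chosen with earlier results of these data known. Values in every library are given for the 12 members with the highest CPM, the 12 largest rises and the 12 largest falls past an adjusted p of 0.05 whose mean reached 0.5 CPM and whose groups did not overlap, and members of the role lists, in full or as mean and SD. Members named for a neighbour, an adjacent member or a promoter element were chosen after their values were seen. Coordinates, lengths, overlaps and shared 75-base stretches come from GENCODE release 29, and promoters and the microRNA from RefSeq (GRCh38.p14). Intervals and the limit of 3 counts cover 95% and counting error as stated. Alternatives were library size alone, no filter, no robust estimation, the replicate block, DESeq2, each library left out, members with at least 300 counts, and members without shared sequence or overlap. A few results are not reported here.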

Additional observations from a re-analysis of the deposited data

How the results depend on the processing

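No call of a member changed sign under any alternative run, and 71 of 93 held under all of them. DESeq2 kept 78 and called 47 members higher and 31 lower. Leaving out 1 library kept 80 to 83, with 48 to 56 members higher and 34 to 37 lower. Library size alone moved the median of all tested genes by -0.07 and gave 48 higher and 45 lower. The 76 members free of shared 75-base stretches and exonic overlap included 16 higher and 19 lower, with fewer members by construction. In all tested members 53 were higher and 40 lower, so in this part the falls outnumbered the rises. Why the balance differed was not tested. With the replicate block, 54 members were higher and 40 lower, and 91 calls were kept. The labels do not say whether the letters pair the libraries. Deviations from the group means correlated at 0.08 (A), -0.01 (B) and 0.07 (C) between same-lettered libraries and at -0.10 to 0.04 between others, and B did not correlate best with its own letter, and the letters were not treated as pairs. Close pairs called in opposite directions numbered 1 (LINC01426 and RUNX1) under library size alone, without the filter and with the replicate block, and 0 to 1 when a library was left out, where same-direction pairs numbered 10 to 13. DESeq2 gave 10 and 0. Some members that did not pass turned in direction. With library size alone, LINC00665 went to -0.0352, LINC01116 to -0.0246 and LINC00339 to -0.0425. When a library was left out, LINC00641 ranged from -0.0811 to 0.0585 (above 0 without siGL2 A or siLINC00152 C), LINC00665 from -0.21 to 0.219 (below 0 without siGL2 B or siLINC00152 C), LINC01116 from -0.0106 to 0.0693 (below 0 without siGL2 A) and LINC00339 from -0.0197 to 0.0577 (below 0 without siLINC00152 A). The cause was not tested. Members with under 300 counts, 75 of the 179, had a median SE of 0.30 on the log2 scale, against 0.07 with 1000 or more, so depth limits what could be detected in them.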

Other observations

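Members that lie next to each other did not always move together. Of 11 pairs of members at most 100000 bases apart, a distance chosen after values were seen, both passed in 3. LINC01128 and LINC00115 overlap on opposite strands and both rose, by 0.55 (SE 0.05) and 0.41 (SE 0.12) on the log2 scale, with LINC00115 at 2.37, 2.45 and 2.05 CPM in siGL2 and 3.21, 2.81 and 3.10 CPM in siLINC00152 libraries. Of the 75-base stretches of LINC00115, 27.8% are shared with other genes, most often ZNF596, so its counts are uncertain. LINC01050 and LINC00428, 29852 bases apart on the same strand, both fell, by 1.90 (SE 0.12) and 0.59 (SE 0.25, adjusted p = 0.0435, edgeR quasi-likelihood test). LINC00428 did not pass without siGL2 B, siGL2 C, siLINC00152 A or siLINC00152 C (adjusted p = 0.0648, 0.217, 0.185 and 0.128).

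LINC01118 and LINC01119 overlap on the same strand beside SOCS5, a suppressor of cytokine signalling, and went in opposite directions. LINC01118 had 0.415, 0.278 and 0.190 CPM in siGL2 and 0.511, 0.571 and 0.634 CPM in siLINC00152 libraries, with no overlap (log2 0.97, SE 0.30, adjusted p = 0.00764, edgeR quasi-likelihood test). LINC01119 had 8.44, 8.17 and 9.39 against 4.75, 4.62 and 4.84 CPM (log2 -0.87, SE 0.09, adjusted p = 2.42e-08). SOCS5, inside which LINC01118 partly lies, rose from 74.2 ± 1.21 to 102 ± 7.81 CPM (log2 0.46, SE 0.05). Of the exonic bases of LINC01118, 11.2% lie in other genes of the same strand, among them LINC01119, so its counts are uncertain. Without siGL2 C, LINC01118 no longer passed (log2 0.72, adjusted p = 0.0572).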
